A study of Mus musculus with 10 samples.

Results

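The genes described here encode the protein-folding machinery of the endoplasmic reticulum (ER) and the unfolded protein response that adjusts it. They were taken by symbol from a list of 34 names, of which 33 head a row among the 23337 genes of the authors' deposited table. The remaining name, Vimp, matched in RefSeq the row H47, which is described beside the others and not counted with them. The list holds ER chaperones, disulfide isomerases, genes of ER-associated degradation, the translocon, and sensors of the IRE1 and ATF6 arms.

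Secreted and membrane proteins enter the ER through the Sec61 channel, are folded by chaperones such as BiP (Hspa5), and are joined by disulfide bonds with the help of protein disulfide isomerases. When unfolded proteins accumulate, 3 membrane sensors respond: IRE1 (Ern1) splices Xbp1 mRNA, ATF6 is cut to release a transcription factor, and PERK (Eif2ak3) slows translation. In heart muscle the ER continues into the sarcoplasmic reticulum, where chaperones that bind calcium, such as calreticulin, share the lumen with the calcium stores.

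The samples were cardiomyocytes (contracting heart cells) of Wildtype mice, freed by retrograde collagenase perfusion and sorted by fluorescence; the gate of the sort is not given in the sources used here. Virus was given on postnatal day 1 at 5e+08 viral genomes per gram, and cells were taken on postnatal day 14. Animals of the GFP group (5 libraries) received AAV9-cTNT-GFP, and those of the dnMKL1 group (5 libraries) received AAV9-cTNT-dnMKL1-GFP, so both groups carry the virus and GFP. The cTNT promoter, of cardiac troponin T, limits the transgene to cardiomyocytes, and dnMKL1 is a dominant-negative form of MKL1 (MRTF-A), a coactivator of serum response factor. The comparison asks how the transcripts of these cells differ when dnMKL1 is present.

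The authors' deposited table gives, per gene, a mean over all libraries (base mean, in counts normalized by size factors), a log2 fold change with its standard error (SE), and a Benjamini-Hochberg adjusted Wald p-value. It holds no value per library, so each level below is a group mean implied by those columns, and the spread between libraries enters through the SE. Positive fold changes mean higher in dnMKL1, a direction read from Mkl1, whose implied mean was 83.9 normalized counts in GFP and 74899 in dnMKL1. Library totals, estimated from recovered size factors, ran from 8802947 to 17123500 counts in GFP and from 8835151 to 17228537 in dnMKL1. All 12 cardiomyocyte markers were present, led by Myh6 with implied means of 768373 and 421599 normalized counts. Next were Atp2a2 (334554 and 179550) and Actc1 (326267 and 111228). At an adjusted p under 0.05, 8 of the 12 were lower in dnMKL1 with 0 higher, where 17.4% of all genes were lower. The fall was uneven, with log2 fold changes from -1.55 to -0.003. With both groups scaled to the same total, 6 were lower and 1 was higher, where 6.6% and 40.4% of all genes were. In such bulk samples, fewer cells of a type and less RNA per cell cannot be told apart.

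ER folding genes moved little and in a mixed way. At an adjusted p-value under 0.05, 9 of the 33 were higher in dnMKL1 and 2 were lower. Over all 14056 genes tested, 34.1% were past this threshold, 16.6% higher and 17.4% lower, and the members' 33.3% is close to that background. Their split was 27.3% higher and 6.06% lower. The median log2 fold change was 0.09 over the 33 members and 0.02 over all genes tested, and the median size regardless of sign was 0.17 against 0.29. Of the members past the threshold, 4 also reached a log2 fold change of 0.5 in size, Edem2, Sdf2l1, Sec61a1 and Sec61b, as did 19.5% of all genes. By the same Wald test 0 members reached 1 (6.7% of all genes did). An unadjusted p-value under 0.05 was found for 14 of the 33 members and for 5854 of all 14056 genes tested. At other limits the members counted 10 of 33 against 25.2% of all genes at an adjusted p under 0.01, 13 against 39.7% under 0.1, 11 against 26.5% with adjustment over every deposited p-value, and 9 of 30 against 43.4% at a base mean of at least 100.

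The 95% Wald interval, computed from the deposited SE, lay within 0.5 log2 units of 0 for 22 of the 33 members (66.7%), and for 34.3% of all genes tested. At a base mean of at least 50, where genes are more alike in abundance, the shares were 68.8% of 32 members and 48.5% of all genes tested. Derl3, a derlin of secretory tissues, had implied means of 1.39 and 2.28 normalized counts, which is too few for a fold change. Among the other 32, base means ran from 64.3 to 12100 normalized counts and SEs from 0.06 to 0.24, and their median log2 fold change was 0.08. Of the 21 that were not past the threshold, 9 had positive and 12 negative estimates, none over 0.30 in size. For 20 of those 21 the interval stayed within 0.5 log2 units of 0, Ern1 being the exception with an upper bound of 0.67.

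**Figure D1:**
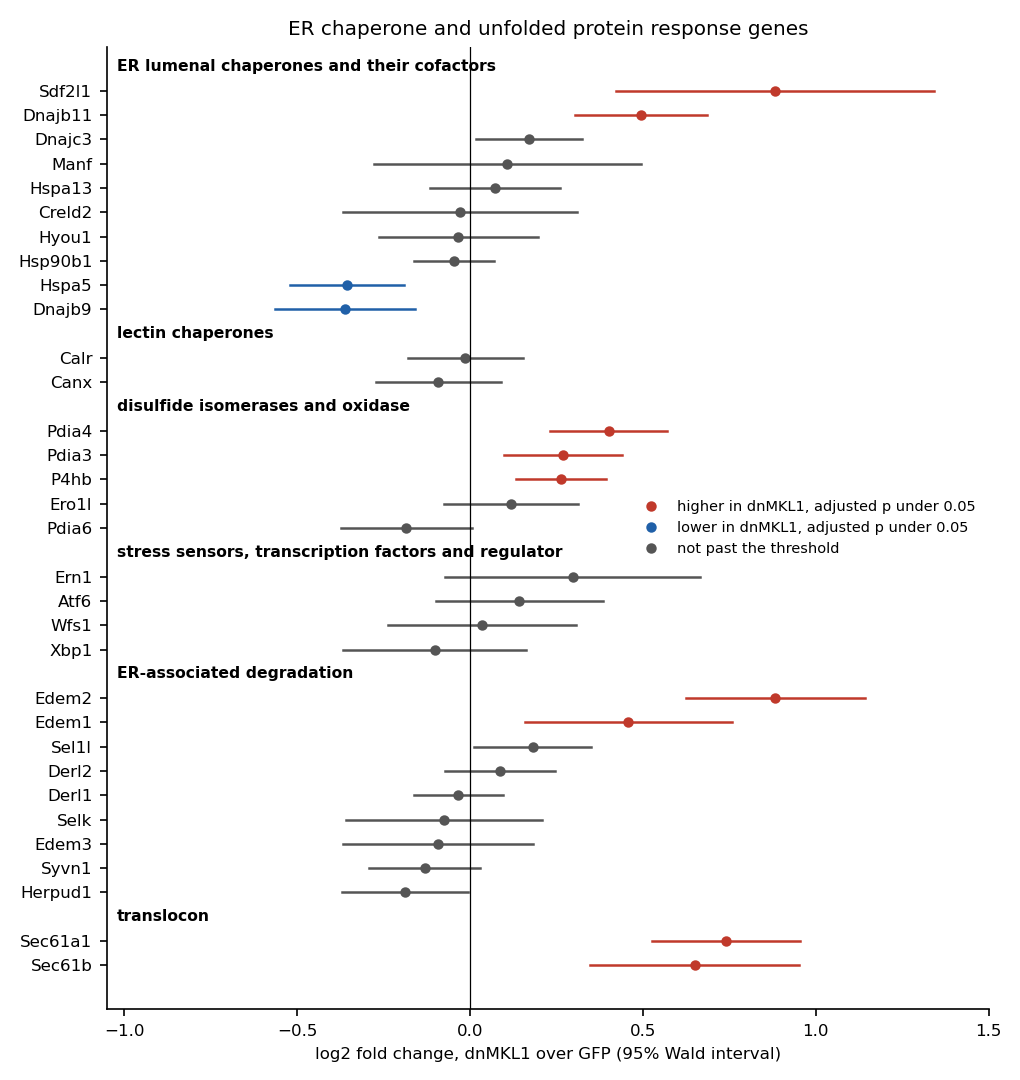
Log2 fold change of 32 members (points) with 95% Wald intervals (lines), grouped by role; Derl3 is left out for its low counts. Positive values mean higher in dnMKL1. The intervals of both translocon genes and of P4hb, Pdia3, Pdia4, Dnajb11, Sdf2l1, Dnajc3, Edem1, Edem2 and Sel1l lie right of 0. Those of Hspa5, Dnajb9 and Herpud1 lie left of it.

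These directions depend on how the groups are scaled. Summed over all genes, the implied means were 0.29 log2 units lower in dnMKL1 than in GFP, and scaling both groups to the same total adds that amount to every fold change. Under it 20 of the 33 members were higher and 0 lower (60.6%), where 47.0% of all genes passed, 40.4% higher and 6.6% lower. With Mkl1 left out of the totals the count was again 20, against 47.7% of all genes. All 9 members that were higher under the authors' scaling were among those 20. Hspa5 and Dnajb9 kept negative estimates, of -0.07 each, and were no longer past the threshold (adjusted p = 0.544 and 0.596). Fold changes below are given under the authors' scaling.

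The most abundant member was lower. Hspa5 encodes BiP, the main HSP70-type chaperone of the ER lumen and the protein that holds the stress sensors inactive (chromosome 2, 34771970 to 34777547, plus strand, GRCm38). Its implied mean was 13583 normalized counts in GFP and 10618 in dnMKL1. In the authors' deposited table this is a log2 fold change of -0.36 (SE 0.08, adjusted p = 1.7e-04), or 0.782 times the GFP level with a 95% interval from 0.697 to 0.876.

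Cofactors of BiP went in different directions. Dnajb9 (ERdj4), a J-domain protein that brings BiP to misfolded proteins and to IRE1, had implied means of 467 in GFP and 363 in dnMKL1. It was lower, with a log2 fold change of -0.36 (SE 0.10, adjusted p = 0.00239) in the authors' deposited table. By contrast Dnajb11 (ERdj3), a lumenal J-domain protein that hands nascent chains to BiP, had implied means of 919 in GFP and 1294 in dnMKL1. The authors' deposited table lists this rise at 0.49 on the log2 scale (SE 0.10, adjusted p = 4.0e-06). Sdf2l1, which works in a complex with Dnajb11, had the lowest counts of the members that rose, 45.3 in GFP and 83.4 in dnMKL1. The authors' deposited table lists it at 0.88 (SE 0.24, adjusted p = 9.8e-04), with a wide 95% interval of 0.42 to 1.34. Its paralog Sdf2, outside the member list, had implied means of 582 and 575 and an entry of -0.02 (SE 0.09, adjusted p = 0.910) in the authors' deposited table, and was 0.27 (adjusted p = 0.00940) under total-count scaling. Dnajb9 lies on chromosome 12 (44205559 to 44210326), while Dnajb11 (22857845 to 22879634) and Sdf2l1 (17130138 to 17132383) both lie on chromosome 16.

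The other lumenal chaperones were not past the threshold. Hsp90b1 (GRP94), the ER form of HSP90, had the smallest SE of all members, with implied means of 4666 in GFP and 4519 in dnMKL1. Its interval ran from -0.16 to 0.07, and under total-count scaling the sign turned and it was higher, at 0.24 (adjusted p = 1.5e-04). Of its exon bases 14.7% are shared with 1810014B01Rik on the other strand, and whether the counting used strand is not given in the sources used here. Dnajc3, a BiP cochaperone also called p58IPK, had an interval of 0.02 to 0.32, and its p-value in the authors' deposited table was 0.0290 before and 0.0777 after adjustment. Hyou1, a nucleotide exchange factor for BiP, was at 268 and 262, and Hspa13 at 342 and 360. Manf and Creld2, small secreted ER stress proteins, were at 243 and 262 and at 204 and 200, with intervals of -0.28 to 0.49 and -0.37 to 0.31. The lectin chaperones, which fold glycoproteins, also gave values close together: calreticulin (Calr) had implied means of 3697 and 3664, and calnexin (Canx) 7065 and 6632. Of the 2 lectin genes, 0 were past the threshold in the authors' deposited table (DESeq2-type Wald test) and 0 had an unadjusted p-value under 0.05. Of all 14056 genes tested, 34.1% were past the threshold and 5854 had an unadjusted p-value under 0.05.

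Among the 4 disulfide isomerases and the oxidase of the member list, 3 of 5 were higher and 0 lower, where 16.6% of all genes were higher. Among 10 related genes of the further folding list (Pdia5, Erp29, Erp44, and the Tmx and Txndc genes, grouped after their values were seen), 0 were higher and 2, Tmx2 and Erp44, were lower in the authors' deposited table, against 4 higher and 0 lower under total-count scaling. Under that scaling 40.4% of all genes tested were higher. P4hb (PDI itself, and also a subunit of collagen prolyl 4-hydroxylase) had implied means of 4106 in GFP and 4927 in dnMKL1. Pdia3 (ERp57), which acts on glycoproteins with calnexin and calreticulin, was at 2727 and 3285, and Pdia4 (ERp72) at 656 and 867. For these genes, in that order, the authors' deposited table has log2 fold changes of 0.26 (SE 0.07, adjusted p = 4.3e-04), 0.27 (SE 0.09, adjusted p = 0.00864) and 0.40 (SE 0.09, adjusted p = 2.8e-05). Pdia6 (P5), another family member, had the opposite sign, with 1861 and 1638 and an interval of -0.37 to 0.01, and its estimate became 0.10 under total-count scaling. Ero1l, the oxidase that recharges PDI, was at 338 and 367 with an interval of -0.07 to 0.31.

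Of the 4 sensor and regulator genes, 0 passed the Wald test of the authors' deposited table, and 0 had an unadjusted p-value under 0.05. Of all 14056 genes tested, 34.1% passed and 5854 had an unadjusted p-value under 0.05. Ern1 had implied means of 101 in GFP and 124 in dnMKL1, Xbp1 949 and 884, Atf6 2009 and 2218, and Wfs1, an ER membrane protein that restrains ATF6, 2047 and 2098. The intervals were -0.07 to 0.67, -0.37 to 0.16, -0.10 to 0.38 and -0.24 to 0.31. Under total-count scaling 3 of the 4 were higher, Ern1 at 0.59 (adjusted p = 0.00554), Atf6 at 0.43 (0.00160) and Wfs1 at 0.32 (0.0429). Of all genes tested, 40.4% were higher under that scaling. Counts per gene do not separate spliced from unspliced Xbp1 mRNA, nor cut from whole ATF6.

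In ER-associated degradation, which sends misfolded proteins to the proteasome, 2 of the 10 counted genes, Edem2 and Edem1, were higher and 0 were lower. This is near the background, since 16.6% of all genes tested were higher. Edem2, which makes the first mannose trim that marks a glycoprotein for removal, had implied means of 155 in GFP and 286 in dnMKL1. With Sdf2l1 this was the largest change of the 32 members with a fold change, 1.84-fold with a 95% interval of 1.54 to 2.21, and the authors' deposited table lists it at 0.88 (SE 0.13, adjusted p = 5.1e-10; chromosome 2, 155701677 to 155729475). Edem1 was at 137 and 188, with 0.46 (SE 0.15, adjusted p = 0.0107) in the authors' deposited table. Edem3, of the same family and more abundant, was at 716 and 672, and its interval ran from -0.37 to 0.18. H47, the row of the selenoprotein VIMP that recruits the p97 ATPase to the ER, was at 379 and 493, and the authors' deposited table gives it 0.38 (SE 0.09, adjusted p = 1.2e-04).

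Genes around the ubiquitin ligase of the same route did not pass under the authors' scaling. Sel1l, the scaffold, had implied means of 1576 and 1787 with an adjusted p of 0.0929 in the authors' deposited table, and Syvn1 (HRD1), the ligase, 345 and 315 with 0.227. Herpud1, a stress-induced partner of the ligase, was at 2007 and 1762 with an adjusted p of 0.106 there, and its interval of -0.37 to -0.01 lay below 0. Derl1 and Derl2, channel-like derlins, were at 1307 and 1277 and at 549 and 583. Selk, a selenoprotein bound to them, was at 741 and 702. Under total-count scaling 5 of the 10 were higher, with Sel1l at 0.47 (adjusted p = 4.9e-07), Derl1 at 0.26 and Derl2 at 0.38 added to Edem1 and Edem2. This is near the 40.4% of all genes tested that were higher under that scaling.

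Both translocon genes were higher, under the authors' scaling and under total-count scaling. Of all genes tested, 16.6% were higher under the first and 40.4% under the second. Sec61a1, the channel-forming subunit (chromosome 6, 88503579 to 88518905), had implied means of 957 in GFP and 1600 in dnMKL1, a 1.67-fold rise with a 95% interval of 1.44 to 1.94. Sec61b, a small subunit (chromosome 4, 47474658 to 47483242), was at 64.6 and 101. The authors' deposited table gives 0.74 (SE 0.11, adjusted p = 2.8e-10) and 0.65 (SE 0.15, adjusted p = 1.8e-04). Sec61a2, the paralog of the channel subunit, fell, from 466 to 301, with -0.63 (SE 0.09, adjusted p = 1.3e-11) in the authors' deposited table and -0.34 (adjusted p = 3.4e-04) under total-count scaling. Sec61g, the third subunit, was at 37.6 and 36.7 with a 95% interval of -0.52 to 0.46. Of the exon bases of Sec61a1 17.3% are shared with Gm44170 on the other strand, and reads from stretches alike in Sec61a1 and Sec61a2 could be split between them.

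Levels between genes were compared per kilobase of the longest annotated transcript, as implied means in normalized counts per kb. Hspa5 led in both groups, with 3699 in GFP and 2891 in dnMKL1, and its share of the members' summed level was 21.1% and 16.6%. Calr (1693), Canx (1650), Hsp90b1 (1448) and P4hb (1435) followed in GFP, and in dnMKL1 P4hb (1722) stood in second place before Calr (1678). The order of those 4 rests on differences for which no error per level can be given. Sensors and trimming enzymes were low: Ern1 had 14.6 in GFP and 17.9 in dnMKL1, and Edem1 22.5 and 31.0. The summed level of all 33 members was 17496 in GFP and 17384 in dnMKL1.

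**Figure D2:**
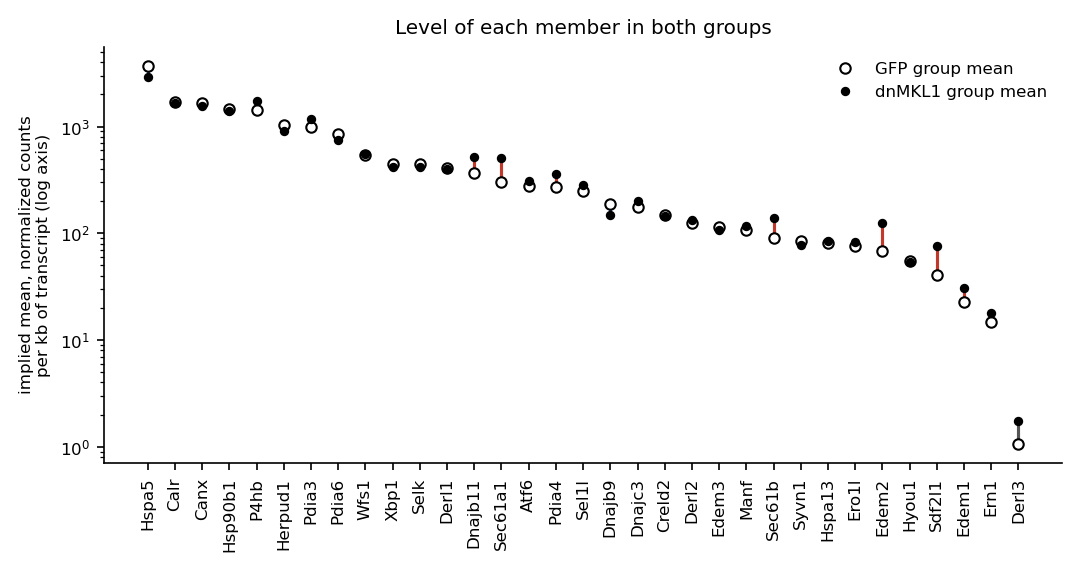
Implied group mean of each of the 33 members in normalized counts per kb of transcript, on a log axis (open circles GFP, filled circles dnMKL1, joined by a line coloured by call as in the plot of fold changes by role). Genes are ordered by the GFP level, from Hspa5 at 3699 to Derl3 at 1.05, and most pairs of circles overlap.

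**Figure D3:**
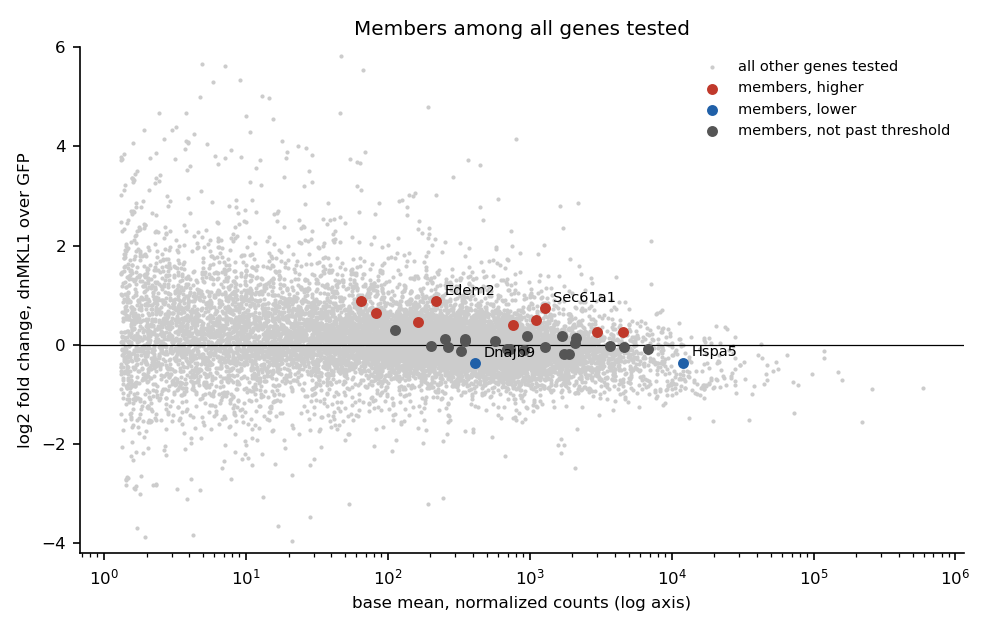
Log2 fold change against base mean (log axis) for the genes tested by the authors; Mkl1, at 9.80, is outside the plotted range. Members (large points; Derl3 left out) lie near the middle of the cloud, from -0.36 to 0.88.

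Part of the members share a known promoter element. The ER stress response element, ERSE, spelled as CCAAT, then any 9 bases, then CCACG, is bound by NF-Y at its first letters and by ATF6 or XBP1 at its last. It was searched on both strands in RefSeq promoters of GRCm38.p6, from 250 bases before to 50 bases after each annotated start. Of 27025 genes with such a window, 37 (0.137%) held an exact match. Of the 27 members with a window, 9 (33.3%) did, so that 24.3% of all genes with the element were members. Because the element is named for the response that the member list represents, these shares are a description and not a test. The matches below show how fixed ends (capitals) frame a variable middle (lower case), each written 5′ to 3′ on the strand that reads as the element:
Hspa5, chr2:34772025-34772043: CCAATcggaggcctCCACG
Hsp90b1, chr10:86705638-86705656: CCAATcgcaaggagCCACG
Hsp90b1, chr10:86705533-86705551: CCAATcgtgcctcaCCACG
Dnajc3, chr14:118937827-118937845: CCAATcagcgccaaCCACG
Creld2, chr15:88819520-88819538: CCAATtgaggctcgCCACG
Calr, chr8:84847075-84847093: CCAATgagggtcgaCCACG
Canx, chr11:50325800-50325818: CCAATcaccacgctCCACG
Pdia6, chr12:17266491-17266509: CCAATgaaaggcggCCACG
Syvn1, chr19:6046532-6046550: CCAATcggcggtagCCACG
Derl3, chr10:75893242-75893260: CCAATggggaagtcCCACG

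Hsp90b1 is the member with 2 exact matches, one on each strand. The stretch that spans them (chr10:86705530-86705659, minus strand, positions -215 to -86 from the start) is shown to place both, with the fixed letters in capitals, the second match reading as its reverse complement:
Hsp90b1: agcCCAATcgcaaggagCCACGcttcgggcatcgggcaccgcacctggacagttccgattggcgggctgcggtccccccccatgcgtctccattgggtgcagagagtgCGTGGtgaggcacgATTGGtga

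Among the 8 members with an exact ERSE and a base mean of at least 10 normalized counts, 0 were higher and 1, Hspa5, was lower by the Wald test of the authors' deposited table. Their median log2 fold change was -0.07, and the highest of them was Dnajc3 at 0.17, with the unadjusted p-value of 0.0290 given above. Of the 18 members with a window and no exact match, 8 were higher and 1 lower, with a median of 0.22. These include Dnajb11, which was higher, and Herpud1, both with an exact match of another element, ERSE-II, described below. Among all 9496 tested genes with a window at this base mean, 18.4% were higher and 20.6% lower. Under total-count scaling 3 of the 8 with the element and 13 of the 18 without it were higher, with medians of 0.22 and 0.51. Of all 9496 tested genes with a window at this base mean, 4354 were higher and 725 lower under that scaling. Under the authors' scaling the 7 other tested genes with an exact match at this base mean had 3 higher and 1 lower, with a median of 0.22. No test was made of the difference between these groups, and no match means only that these letters were not found in this window.

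Other elements were rarer among the members. ERSE-II, spelled as ATTGG, any 1 base, then CCACG, was found in 2 of 27 (Herpud1 and Dnajb11) and in 0.0444% of all windows by gene. Herpud1 carries it at chr8:94386377-94386387, positions -52 to -42 from the start, as ATTGGgCCACG. The core TGACGTG, shared by sites of ATF6, XBP1 and other factors, was found in 1 of 27, Hspa5, and in 2.22% of all genes with a window. Since ERSE and ERSE-II end in the same letters and the core reads CACGTCA on the other strand, matches could overlap, but in Hspa5 the core (positions -157 to -151) lies apart from the ERSE (-65 to -47).

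**Figure D4:**
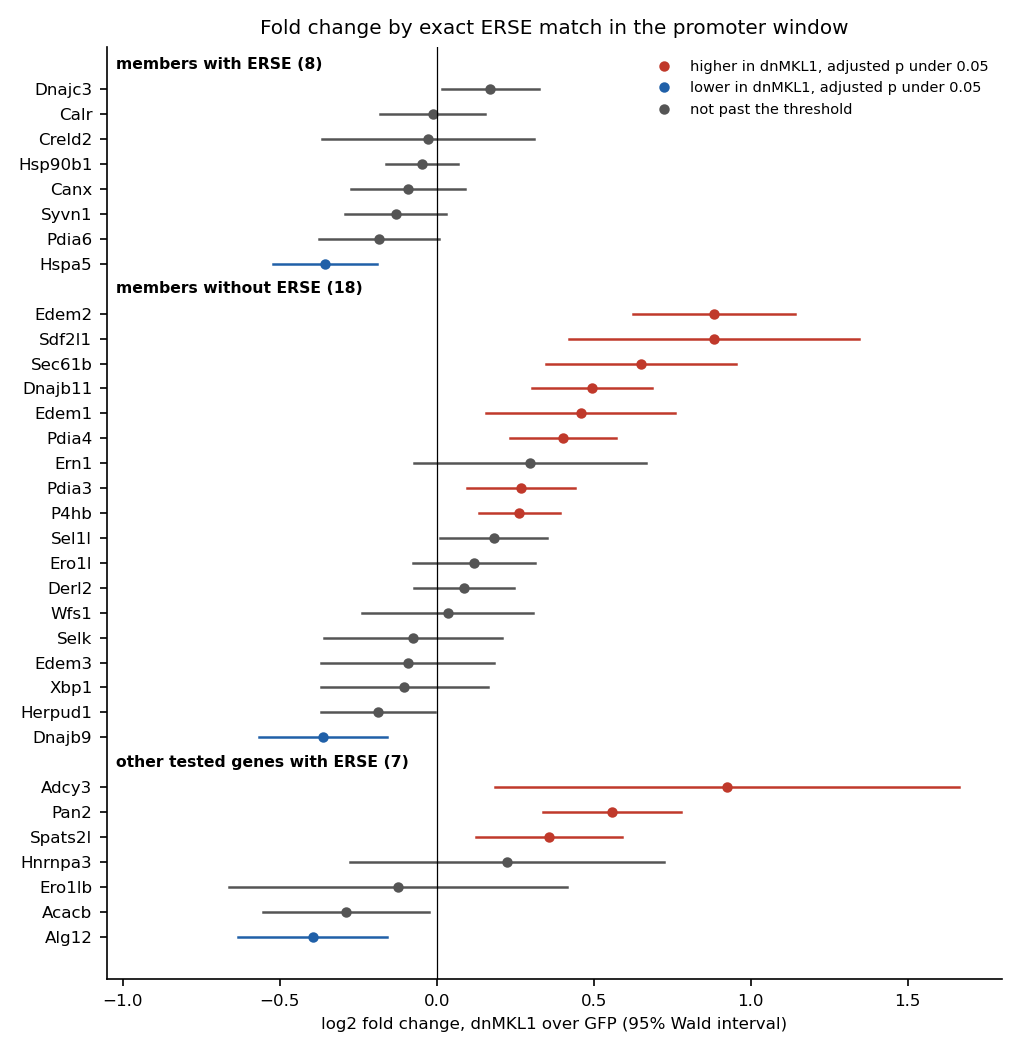
Log2 fold change (points) with 95% Wald intervals (lines) for members with an exact ERSE match in the promoter window, members without one, and other tested genes with one, all at a base mean of at least 10 normalized counts. The 8 members with a match lie between -0.36 and 0.17, and those without reach 0.88. Dnajb11 and Herpud1, among those without, hold ERSE-II.

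Beyond the members, 163 further genes of ER protein handling were examined in 7 lists. Of 160 with an adjusted p-value, 32 were higher and 24 lower (35.0% past the threshold, against the 34.1% of all genes), with a median log2 fold change of 0.01. Under total-count scaling 101 were higher and 7 lower. For these lists the shares over all genes tested were 16.6% higher and 17.4% lower, and 40.4% and 6.6% under total-count scaling. Folding enzymes outside the member list had 9 higher and 6 lower of 37, and 22 and 1 under that scaling. The authors' deposited table gives 0.94 (SE 0.12, adjusted p = 1.1e-12) for Fkbp2, a lumenal prolyl isomerase, and -0.98 (SE 0.13, adjusted p = 6.4e-13) for Fkbp10, an isomerase that acts on collagen. P4ha1, the catalytic subunit that pairs with P4hb, was at 550 and 815, with 0.57 (SE 0.11, adjusted p = 2.1e-06) in the authors' deposited table, and Tmx2 was at 1916 and 1270.

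In the degradation route, genes outside the members had 2 higher and 5 lower of 25, and 15 higher and 3 lower under total-count scaling. Os9, the lectin that passes trimmed glycoproteins to Sel1l, had implied means of 456 and 836, with 0.88 (SE 0.11, adjusted p = 1.0e-13) in the authors' deposited table. The membrane ubiquitin ligases Rnf139 (1584 and 1122) and March6 (1118 and 707) fell, with -0.50 and -0.66 (SE 0.08 and 0.14, adjusted p = 6.8e-08 and 2.4e-05 in the authors' deposited table). Faf2, which anchors p97 at the ER membrane, was at 487 and 596 (adjusted p = 0.00570 in the authors' deposited table).

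Genes of targeting and translocation had 4 higher and 2 lower of 23, and 17 and 1 under total-count scaling. Sec62 and Tram1, which help chains into the Sec61 channel, were at 762 and 1007 and at 741 and 910, with adjusted p = 3.1e-05 and 1.7e-05 in the authors' deposited table. Srp19, a protein of the signal recognition particle, fell from 895 to 685 (adjusted p = 3.2e-05 in the authors' deposited table). N-glycosylation genes had 4 higher and 4 lower of 20 (11 and 1 under total-count scaling), among them Alg5 (184 and 282) and Ganab (816 and 1033) as higher, and Magt1 (856 and 663) and the row 1810006K21Rik, RefSeq's Tmem258 (402 and 259), as lower. Genes of ER to Golgi transport had 4 higher and 6 lower of 27, and 17 higher and 1 lower under total-count scaling. The coat subunits Copb1 (1106 and 1379) and Copg (1810 and 2104) rose, while Sar1b (1998 and 1350) and Tmed2 (890 and 691) fell.

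Stress sensing genes outside the member list had 3 higher and 1 lower of 17, and 10 and 0 under total-count scaling. Atf6b, the paralog of Atf6, was at 242 and 346, with 0.52 (SE 0.11, adjusted p = 5.0e-05) in the authors' deposited table. Traf2, an adaptor of IRE1, was at 409 and 494, and Bfar, an ER membrane ubiquitin ligase, was the one lower gene at 1212 and 1019, with its sign turned under total-count scaling. The PERK arm had 6 higher and 0 lower of 11 (9 and 0 under total-count scaling), with a median log2 fold change of 0.27. Over all genes tested 16.6% were higher, and 40.4% under total-count scaling. Trib3, a target of the ATF4 and CHOP factors, was at 8.77 and 113, with 3.69 (SE 0.39, adjusted p = 8.8e-19) in the authors' deposited table. Ppp1r15a (GADD34), which restores translation, was at 507 and 900, with 0.83 (SE 0.17, adjusted p = 5.7e-06) there. The remaining 4 that were higher are Eif2ak3, Ddit3, Nck2 and Atf3 (SE 0.51), named to complete the count after their values were seen. The 5 not past the threshold include Atf4, at 806 and 892 (Wald adjusted p = 0.398 in the authors' deposited table). The others are Ppp1r15b, and Eif2s1, Nck1 and Chac1 with negative estimates of -0.11, -0.18 and -0.10. Whether this arm differed from the IRE1 and ATF6 genes was not tested.

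**Figure D5:**
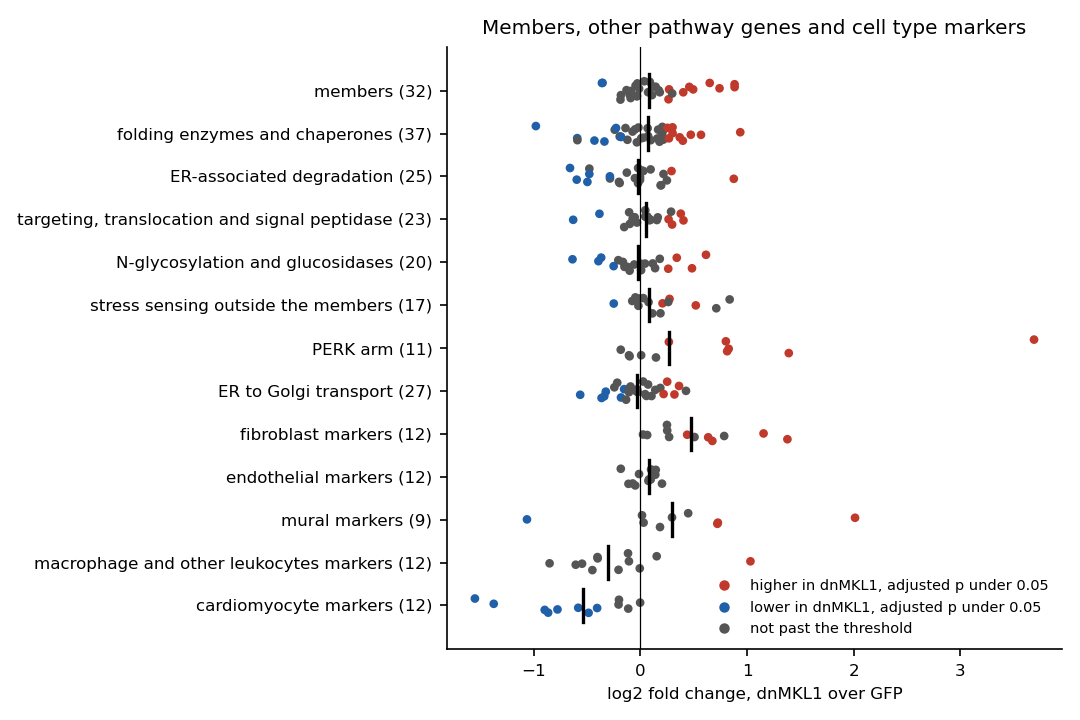
Log2 fold change of every tested gene (points, spread vertically for view) in the members, 7 lists of other ER genes and 5 lists of cell type markers, with the median of each list as a black bar and the number of genes in brackets; Derl3 and H47 are left out. The members' median is 0.08, that of the PERK arm 0.27 and that of fibroblast markers 0.47.

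Fibroblasts secrete matrix and are rich in ER. Of 12 fibroblast markers, all detected, 5 were higher and 0 lower, where 16.6% of all genes were higher, and their implied means summed to 5228 normalized counts in GFP and 8877 in dnMKL1. Under total-count scaling 8 were higher, where 40.4% of all genes were. The most abundant were Col3a1 (1937 and 2625), Fbln1 (748 and 1944) and Gsn (876 and 1951), and most of the rise of the sum came from these. Not past the threshold were Dcn (327 and 394), Lum (102 and 121) and Postn (344 and 489). Tcf21 was at 6.17 and 10.6 and Pdgfra at 41.7 and 43.5. Mural markers had 3 higher and 1 lower of 9 and summed to 18254 and 15947, with Acta2 at 10454 and 4999, Abcc9 at 6332 and 7773, and Cspg4 at 501 and 2019. Acta2 and Abcc9 made up most of both mural sums. Of the 9 estimates 8 were positive and 1, that of Acta2, negative, so the fall of the sum came from Acta2. The mural sums are therefore no measure of mural cell content. Of 12 endothelial markers 0 passed in the authors' deposited table (0 with an unadjusted p-value under 0.05), and the sums were 4399 and 4458, led by Kdr, Fabp4 and Pecam1. Leukocyte markers, led by Lyz2, Csf1r and C1qb, summed to 184 and 160, with 1 of 12 higher and 0 lower. Their part in the changes of P4hb, Sec61a1, Edem2 and the other members that rose was not tested.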

How the data were processed

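Per the labels' protocols, 10 ng of RNA from sorted cells was amplified over 8 PCR cycles with a SMART-Seq kit, and 500 pg of cDNA entered Nextera XT. STAR 2.5.3a, featureCounts (Subread 1.5.2), CASAVA 1.8 and mm10 are named per the submitters' processing notes. The settings of the comparison are not given in the sources used here. Per the file headers, the deposited columns are those of DESeq2: base mean (a signal in normalized counts), log2 fold change and SE, Wald score, p-value and adjusted p-value.

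The members and gene lists were chosen with earlier results of these data known. The planned count tests need values per library, so the deposited test was used, at an adjusted p under 0.05. Implied means assume that the base mean averages 5 libraries of each group equally. Size factors came from genes with 1 read in 1 library, and totals from these factors times the group's summed implied mean; intervals cover the spread in the deposited SE. The series' design text calls the libraries biological replicates, and whether they share a litter or a preparation day is not given in the sources used here. Scripts (Python 3.11.15, scipy 1.17.1) were tested on simulated data. Alternatives were thresholds, filters and scalings, and the base mean limits in the promoter and interval comparisons were chosen after seeing the data. Lengths and coordinates came from GENCODE M21 (34 of 34 names matched) and promoters from RefSeq, which held 27 of 33 members. Symbols the table does not list were matched through RefSeq synonyms. Protein motifs were not searched. Named genes were all members, from each further list up to 2 in each direction with the smallest adjusted p at a base mean of at least 50, and the 3 most abundant markers per list. Sdf2, Sec61g, Tcf21, Pdgfra, Dcn, Lum, Postn and the other PERK arm genes were added after their values were seen.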

Additional observations from a re-analysis of the deposited data

How the results depend on the processing

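No paired analysis was possible because the table holds no values per library; for the same reason fits without single libraries, edgeR and DESeq2 fits and other normalizations of counts were not run, and whether 1 library decides a value is unknown. The 11 members past the threshold were 10 at an adjusted p under 0.01, 13 under 0.1, 11 with adjustment over every deposited p-value and after median-centring, and 9 of 30 at a base mean of at least 100. A minimum log2 fold change of 0.5 left 4 members and 17 of the further ER genes. One of 1 left 0 members and 2 further genes by the Wald test of the authors' deposited table, since fewer genes can pass. An unadjusted p under 0.05 was found for 14 members and for 5854 of all 14056 genes tested. Total-count scaling, with Mkl1 counted or left out, gave 20 members, all higher, and 108 further genes in place of 56. It moved the members' median from 0.09 to 0.38, or to 0.39 without Mkl1, by the added shift alone, which is larger than the median SE of the members. Median-centring gave a median of 0.08, and a base mean of at least 100 gave 0.05. Total-count scaling reversed 12 members with negative estimates, none of them past the threshold before: Hsp90b1 to 0.24 (0.25 without Mkl1), Hyou1 0.25 (0.26), Creld2 0.26 (0.27), Calr 0.28 (0.29), Canx 0.20 (0.21), Pdia6 0.10 (0.11), Xbp1 0.19 (0.20), Herpud1 0.10 (0.11), Edem3 0.20 (0.21), Syvn1 0.16 (0.17), Derl1 0.26 (0.27) and Selk 0.21 (0.22). Among genes outside the members that were named by rule, it reversed C1qb to 0.083 (0.093), Csf1r to 0.28 (0.29) and Pecam1 to 0.22 (0.23). Among them it also reversed Fabp4 to 0.18 (0.19) and Bfar to 0.038 (0.048), and ended the calls of Tmx2, Srp19, Magt1 and Tmed2. Signs of other further genes turned too, for example those of Erp44 (0.11), Sdf2 (0.27) and Sec61g (0.26). Over all the further ER genes, the number called lower went from 24 to 7. Derl3 has too few counts for a fold change. Under total-count scaling 11 members were newly higher: Hsp90b1, Hspa13, Dnajc3, Calr, Ero1l, Ern1, Atf6, Wfs1, Sel1l, Derl1 and Derl2.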
